A study of Mus musculus with 9 samples.

Results

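Arterial-enriched coronary endothelial cells were compared with endocardial cells sorted from the same stage of mouse heart. The comparison took the 3 arterial libraries against the 3 endocardial libraries, which are 6 of the 9 libraries of the series, and covered all 17103 genes that passed a filter on low counts out of 41214 features in the table. The 3 venous-enriched libraries shared the model fit and took no part in the contrast. Their values are given where they help to place a gene. All groups came from embryos at E17.5 that carried 3 transgenes, Nes-Gfp(Tg/0), R26(tom/+) and Nes-CreER(Tg/0), with 0.1 ug of tamoxifen given at E15.5. Every group therefore held a GFP reporter and an inducible Cre driven by Nes, the Nestin gene, and Tomato marks cells in which that Cre acted. Atria and the aortic region were removed, ventricles were dissociated with liberase, and viable Ter119-, CD45-, CD31+, GFP+ cells were sorted. The arterial gate added low endomucin and Tomato. It was described as enriched for intramyocardial arteries together with capillaries, so that it is not a pure arterial sort. The venous gate added low endomucin, no Tomato and low GFP. The endocardial gate as written named CD31 and GFP and neither endomucin nor Tomato. The labels do not say whether replicates came from separate embryos or pools, and p-values reflect how far these libraries vary, possibly for technical reasons alone.

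The endocardium is the endothelium that lines the chambers and valves of the heart. It signals to the muscle beneath it, feeds cells into the valves and, early in development, contributes to coronary vessels. Coronary arteries and capillaries run inside the muscle wall. Arterial fate is tied to Notch signalling, SoxF factors and the chemokine pair Cxcl12 and Cxcr4, whereas capillaries of the heart are specialised for the uptake of fatty acids.

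Levels are given in CPM, the counts of a gene relative to a library size scaled by the trimmed mean of M values (TMM). Differences are log2 fold changes of arterial minus endocardial, with a standard error (SE), so that a positive value means higher in arterial libraries. A gene was called when its adjusted p (edgeR quasi-likelihood test, Benjamini-Hochberg over all 17103 genes) was under 0.05.

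The 4 markers given for the comparison differed between the libraries in the direction of the labels. They were chosen with earlier results of these data known, so that their values describe the populations and are no independent check of the labels. Gja5 encodes connexin 40, a gap junction protein of arterial endothelium. Its level was 59.4, 84.3 and 100 CPM in arterial replicates 1 to 3 and 5.35, 3.39 and 4.41 CPM in endocardial replicates 1 to 3. The groups were far apart, with a fold of 18.5 (log2 4.21 ± 0.34 SE, adjusted p = 2.57e-07, edgeR). Cxcr4, the receptor of Cxcl12, had 63.1, 74.5 and 87.3 CPM in arterial and 1.53, 1.01 and 1.09 CPM in endocardial libraries, the latter resting on 20, 14 and 16 counts. It had the largest rise among the genes of the naming rule, 61.9-fold (log2 5.95 ± 0.32, adjusted p = 2.35e-09). Npr3, the clearance receptor of natriuretic peptides, stood at 2083, 2416 and 2452 CPM in endocardial and at 35.2, 26.7 and 15.2 CPM in arterial libraries. Every endocardial library was above every arterial one, with a fold of 90.0 (log2 -6.49 ± 0.35, adjusted p = 3.05e-07). Cdh11, cadherin 11, had 903, 962 and 1125 CPM in endocardial and 9.66, 5.87 and 6.47 CPM in arterial libraries, a fold of 136 (log2 -7.09 ± 0.30, adjusted p = 1.22e-09).

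The genes lie on GRCm38 at chr3:96904693-97077416 on the plus strand (Gja5), chr1:128588199-128592293 (Cxcr4), chr15:11839896-11907287 (Npr3) and chr8:102632095-102785642 (Cdh11), the last 3 on the minus strand. The promoter windows of 3 of these markers are shown, together with that of Adgrg6, an adhesion receptor gene whose adjusted p was the smallest of the genes described (5.16e-12). They show the sequence beside the start of genes whose arterial and endocardial libraries were far apart. Cdh11 has no window here. Each is the 250 bases before the annotated start (RefSeq, GRCm38.p6), printed 5′ to 3′ on the strand of the gene, with capitals for a match to TATAAA, the core of the TATA box, on either strand. The Gja5 and Adgrg6 windows lie inside the GENCODE spans of these genes (chr10:14402583-14545659 for Adgrg6). For them the RefSeq start differs from the outermost GENCODE start.
Gja5, chr3:97032152-97032401, plus strand: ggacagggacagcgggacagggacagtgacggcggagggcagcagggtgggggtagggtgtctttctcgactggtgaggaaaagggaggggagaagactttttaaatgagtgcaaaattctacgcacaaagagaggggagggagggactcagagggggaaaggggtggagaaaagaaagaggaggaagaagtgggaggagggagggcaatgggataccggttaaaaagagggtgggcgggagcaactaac
Cxcr4, chr1:128592300-128592549, minus strand: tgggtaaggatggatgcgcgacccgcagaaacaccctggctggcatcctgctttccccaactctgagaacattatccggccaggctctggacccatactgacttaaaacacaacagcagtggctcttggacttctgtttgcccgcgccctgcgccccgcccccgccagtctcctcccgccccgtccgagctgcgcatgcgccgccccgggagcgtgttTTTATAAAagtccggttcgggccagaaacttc
Npr3, chr15:11907372-11907621, minus strand: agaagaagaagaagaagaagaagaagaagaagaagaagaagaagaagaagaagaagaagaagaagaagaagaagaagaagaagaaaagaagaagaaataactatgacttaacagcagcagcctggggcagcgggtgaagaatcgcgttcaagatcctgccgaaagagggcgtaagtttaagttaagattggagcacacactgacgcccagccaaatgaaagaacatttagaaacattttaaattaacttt
Adgrg6, chr10:14545037-14545286, minus strand: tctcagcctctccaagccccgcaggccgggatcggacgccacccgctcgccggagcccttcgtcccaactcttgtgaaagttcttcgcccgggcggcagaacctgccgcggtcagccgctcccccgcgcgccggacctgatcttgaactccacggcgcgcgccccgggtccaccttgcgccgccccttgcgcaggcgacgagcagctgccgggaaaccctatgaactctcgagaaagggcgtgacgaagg

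In these 4 windows the TATA letters were found in Cxcr4 alone, at base -30 and, overlapping it on the other strand, at -32. The windows were also searched on both strands for AGATAA (the core bound by GATA factors), AACAAT (Sox factors) and TGGGAA (Rbpj, the DNA-binding partner of Notch), and none of the 4 held a match. Among the 15317 windows of tested genes, 7.0% held TATAAA, 6.3% AGATAA, 5.7% AACAAT and 20.9% TGGGAA. Among the 15 windows found for 13 of the 15 genes with the largest rises, the counts were 3, 1, 0 and 5 windows in the same order. Among the 9 windows found for 9 of the 15 genes with the largest falls they were 0, 0, 0 and 1. The motifs were chosen after the values were seen, and a match or its lack is a description of these letters.

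The difference between the populations was broad. Of the 17103 genes, 1996 (11.7%) were called, 1012 (5.92%) higher in arterial and 984 (5.75%) higher in endocardial libraries. Endocardial genes had the longer tail. The median log2 fold change of called genes was 1.26 on the arterial and -1.89 on the endocardial side, against 0.01 over all genes tested, and 61 arterial but 165 endocardial genes differed by more than 16-fold. Genes higher in arterial libraries took 17.4% to 18.7% of the scaled counts of an arterial library and 7.6% to 8.4% of those of an endocardial library. For genes higher in endocardial libraries the share was 6.8% to 7.6% in arterial libraries, against 24.4% and 22.5% in endocardial replicates 2 and 3 and a lower share in replicate 1. Among the called genes, 1002 of the 1012 and 970 of the 984 had no overlap between the 3 arterial and 3 endocardial libraries, whereas 4386 of all genes tested (25.6%) had none. When tested against a 2-fold difference, 682 genes remained, 265 on the arterial and 417 on the endocardial side, so that the near-even split of calls (50.7% arterial) moved to 38.9% arterial.

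**Figure D1:**
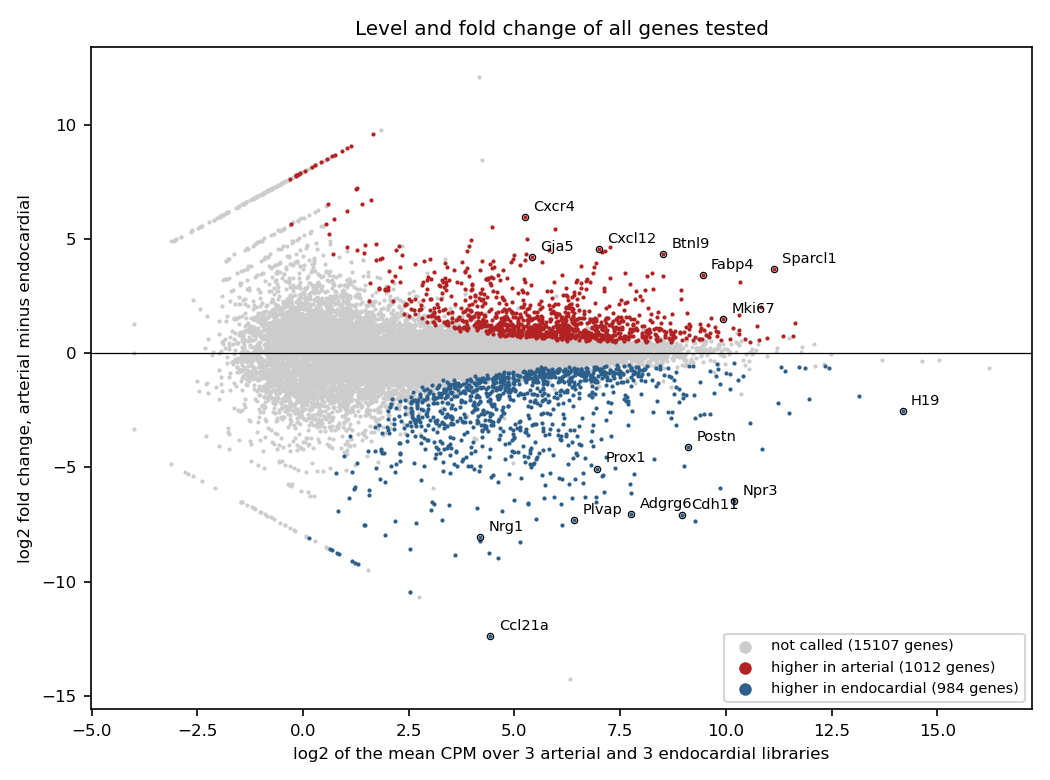
Each point is a gene, with the log2 of its mean CPM over the 6 libraries on the x axis and its log2 fold change of arterial minus endocardial on the y axis. Red genes (1012) were higher in arterial and blue genes (984) in endocardial libraries and grey genes were not called, and endocardial genes such as Npr3 and Cdh11 reach larger folds at high level than arterial genes of like level.

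Library size was 12750553 to 16634848 counts over the 6 libraries. In endocardial replicate 1 counts were found for 21101 genes, against 17337 and 17130 in replicates 2 and 3, and it stood apart on the second principal component (139 against 1.8 and -16.2). Without it 2251 genes were called, 1112 arterial and 1139 endocardial, and the median of all genes was 0.118. Without a single other arterial or endocardial library the number called was 1507 to 1768. The genes of the sort describe the gates and are not read as results. Nes was at 521 ± 16.8 CPM (SD, n = 3) in arterial and 149 ± 1.07 in endocardial libraries, Emcn at 199 ± 38.3 and 679 ± 65.6, and Pecam1, which encodes CD31, at 1129 ± 161 and 753 ± 101.

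The largest rises in arterial libraries joined arterial, capillary and less familiar genes. St8sia6, a sialyltransferase gene, had 116, 128 and 121 CPM in arterial and 3.90, 3.03 and 1.49 CPM in endocardial libraries. Its log2 fold change was 5.44 ± 0.32 (adjusted p = 5.64e-09), and lack of overlap was a condition of this ranking. Dach1 encodes a transcription factor known to promote coronary artery growth. It had 350, 273 and 262 CPM against 18, 5.55 and 12 CPM (4.66 ± 0.38, adjusted p = 1.03e-05). Cxcl12, the ligand of Cxcr4, had 135, 270 and 331 CPM against 10, 12.9 and 8.01 CPM, so that ligand and receptor were both higher in the arterial libraries (4.57 ± 0.49, adjusted p = 0.000254). Depp1, a target of FoxO factors, Sema7a, a membrane-anchored semaphorin, Prnd, the prion-like gene of developing endothelium, and the surface antigen gene Ly6c1 rose by 4.99, 4.52, 4.45 and 4.48 on the log2 scale. Ly6c1 has a close paralog, Ly6c2, and the split of reads between them is uncertain. Sez6l2 (log2 5.53) was less settled, with 0.306, 0.288 and 2.17 CPM in endocardial libraries and a log2 fold change of 7.17 without endocardial replicate 3. Between arterial and venous libraries, St8sia6, Cxcl12 and Prnd were called higher in arterial ones (adjusted p 0.000548 to 0.0247, edgeR). Dach1, Depp1, Sema7a, Ly6c1 and Sez6l2 were not called there (0.0566 to 0.806). Venous libraries had 161, 153 and 216 CPM of Dach1.

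**Figure D2:**
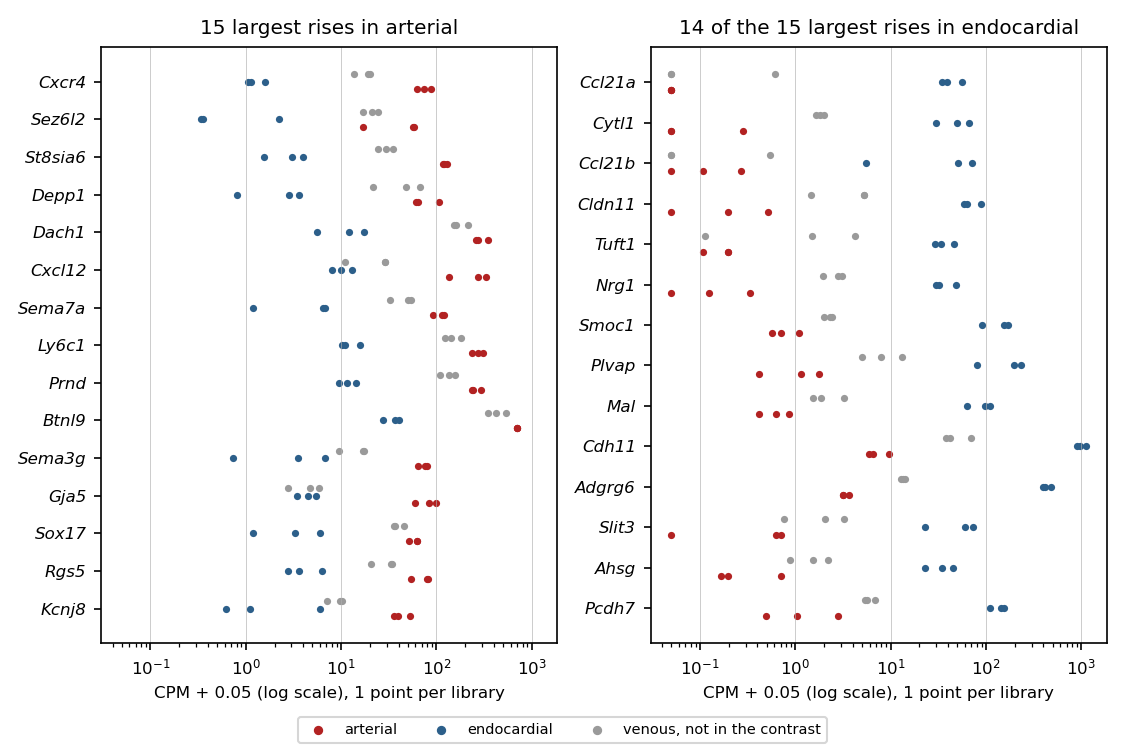
CPM per library, with 0.05 added to each value and a log x axis, of the 15 largest rises in arterial (left) and 14 of the 15 largest in endocardial libraries (right), chosen from calls whose libraries did not overlap and whose log2 CPM averaged 4 or more. In every row the red arterial and blue endocardial points are apart, and for Gja5 the grey venous points lie with the endocardial ones.

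Genes with the largest rises in endocardial libraries were often close to absent from the arterial ones. Adgrg6, also called Gpr126 and needed for heart development, had 392, 484 and 417 CPM in endocardial and 3.10, 3.57 and 3.09 CPM in arterial libraries, a fold of 132. Its values were tight within each population, and lack of overlap was a condition of this ranking too. Nrg1, the neuregulin by which endocardium instructs trabecular muscle, had 389, 441 and 709 counts in endocardial and 0, 5 and 1 counts in arterial libraries. Cytl1, a secreted cytokine-like gene, had 393, 686 and 981 counts against 0, 4 and 0. Such folds rest on a few arterial counts. Without arterial replicate 2 the log2 fold change of Nrg1 moved from -8.04 to -9.69, that of Cytl1 from -8.99 to -12.53 and that of the claudin gene Cldn11 from -8.28 to -9.78. Ccl21a, a lymphatic chemokine gene, had no arterial count and 451, 536 and 831 endocardial counts, which makes it at least 211-fold higher at a floor of 3 counts per arterial library. Its near-identical copy Ccl21b, on the unplaced scaffold GL456350.1, shares reads with it in a way that is not known, and the Ccl21b call ended without any of the 3 arterial libraries (adjusted p 0.0609 to 0.099) and with the replicate number as a block (0.0658).

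Arterial genes were described as a list of 28 known markers. Of the 27 tested, 16 were called higher in arterial libraries, 1 was higher in endocardial libraries and 10 were not called, with a median log2 fold change of 1.41 against 0.01 over all genes. These counts include the given markers Gja5 and Cxcr4, whose side was known beforehand. Unc5b, a netrin receptor of arteries and tip cells, had 155, 274 and 213 CPM against 13.0, 22.8 and 19.9 CPM (3.53 ± 0.30, adjusted p = 1.09e-06). The SoxF factor gene Sox17 had 62.9, 51.9 and 62.6 CPM against 5.88, 1.15 and 3.26 CPM (4.11 ± 0.44, and 4.73 without endocardial replicate 1). Venous libraries had 45.7, 35.9 and 36.8 CPM of Sox17, without a call (log2 0.58 of arterial minus venous, adjusted p = 0.769, edgeR). The relatives of Sox17 were not called between arterial and endocardial libraries. Sox7 had a log2 fold change of 0.40 (adjusted p = 0.229) and Sox18 of 1.67 (0.209). Sema3g, Vegfc, Igfbp3 and the transcription factor gene Mecom were 4.33, 3.26, 2.74 and 1.59 higher on the log2 scale. The fold of Sema3g was 5.15 without endocardial replicate 2. Efnb2, the ephrin that marks arteries, differed less, at 344, 339 and 343 CPM against 186, 235 and 183 CPM (0.76 ± 0.16, adjusted p = 0.00282).

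Some arterial markers did not separate arterial cells from endocardium. Gja4, connexin 37, had 35.5, 67.7 and 62.9 CPM in arterial and 33.5, 60.9 and 53.2 CPM in endocardial libraries, and the ranges overlapped (0.17 ± 0.29, adjusted p = 0.86). Venous libraries had 5.86, 8.77 and 8.45 CPM. Gja4 was higher in arterial than in venous libraries (log2 2.85, adjusted p = 8.3e-05, in a comparison that called 1.07% of genes) and lower in venous than in endocardial libraries (log2 -2.68, adjusted p = 1.92e-05, where 10.2% were called). Gja5 behaved otherwise, at 2.72, 5.87 and 4.61 CPM in venous libraries (log2 0.01 of venous minus endocardial, adjusted p = 0.995). Bmx, a kinase gene used to trace arteries, was higher in endocardial libraries, at 92.9, 78.8 and 73.2 CPM against 22.3, 21.3 and 14.0 CPM (-2.09 ± 0.28, adjusted p = 5.07e-05). Endothelium of the chambers is also known to express it.

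Notch genes split by member. Of 26 tested, 8 were higher in arterial and 2 in endocardial libraries, with a median of -0.03 (-0.16 to 0.21 without a single library). Among ligands, Jag2 had 30.9, 60.8 and 45.9 CPM in arterial against 1.60, 6.27 and 6.79 CPM in endocardial libraries (3.22 ± 0.47, adjusted p = 0.000558), and Dll4 had 75.4, 141 and 142 CPM against 22.4, 27.3 and 38.8 CPM (2.02 ± 0.30, adjusted p = 0.000292). Dll1 went the other way, at 62.3, 52.7 and 56.9 CPM in endocardial and 7.30, 6.34 and 3.09 CPM in arterial libraries (-3.36 ± 0.32, adjusted p = 1.51e-06). The 3 ligand genes thus had arterial and endocardial ranges that did not meet. Among receptors, Notch2 was higher in endocardial libraries by 8.0-fold (adjusted p = 7.68e-05), Notch1 was not called (-0.65 ± 0.38, adjusted p = 0.408, and 0.0378 with the replicate block) and Notch4 narrowly missed (1.16 ± 0.34, adjusted p = 0.0531, and 0.0003 with the block). Targets were uneven. Hey1 had 84.3, 117 and 99.4 CPM against 18.6, 19.2 and 19.1 CPM, 5.29-fold higher in arterial libraries (adjusted p = 1.83e-06), and Nrarp was 2.12 higher on the log2 scale, whereas Hes1 (-0.54, adjusted p = 0.304) and Hey2 (-1.28, 0.103, and 0.045 with the block) were not called. Of the Fringe genes, which modify Notch receptors, Mfng was called (1.96 ± 0.27) and Lfng and Rfng were not. Jag1 (0.83, adjusted p = 0.0217) lost its call without arterial replicate 2 (0.126) or 3 (0.103) or endocardial replicate 2 (0.12), and the list had 5 arterial calls without arterial replicate 2 or endocardial replicate 2.

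Capillary genes were nearly all on the arterial side. Of 19 tested, 17 were higher in arterial libraries, 1 (Fabp5) was higher in endocardial libraries and 1 (Cavin2) was not called, with a median of 2.57. Btnl9, a butyrophilin-like gene of capillary endothelium, had 703, 698 and 696 CPM against 40.3, 27.2 and 36.4 CPM, a fold of 20.2 (4.33 ± 0.21, adjusted p = 8.34e-10). The arterial libraries differed by under 10 CPM, and none approached an endocardial value. Kdr, the VEGF receptor 2 gene, was 1.68 ± 0.21 higher, the apelin gene Apln 2.57 ± 0.24 and the caveolin gene Cav1 2.02 ± 0.17 higher on the log2 scale.

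Genes of fatty acid handling followed the capillary genes at the steps of uptake. The fatty acid list of 29 genes had 10 arterial calls, 1 endocardial call and a median of 0.44 (0.23 without arterial replicate 3, 0.19 without endocardial replicate 1 and 0.14 with the block), and it shares 7 of those 10 with the capillary list. The translocase gene Cd36 had 1887, 2741 and 2277 CPM in arterial and 293, 239 and 265 CPM in endocardial libraries, 8.67-fold. Fabp4, a fatty acid binding protein, had 1427, 1141 and 1278 CPM against 93.7, 129 and 137 CPM, 10.7-fold. Meox2, which with Tcf15 forms a factor pair that drives fatty acid transport genes in heart endothelium, had 193, 187 and 152 CPM against 15.4, 10.3 and 11.9 CPM, 14.1-fold. In all 3 genes the lowest arterial value was several times the highest endocardial one. Venous libraries averaged 2195 CPM of Cd36, 1363 CPM of Fabp4 and 197 CPM of Meox2. None of these was called between arterial and venous libraries (adjusted p 0.934 to 0.977, edgeR). The Meox2 partner gene Tcf15 was lower in counts and less settled (1.99, adjusted p = 0.0167, 0.0912 without arterial replicate 2 and 0.0627 without endocardial replicate 3). Fabp5 went the other way, with 320, 589 and 516 CPM in endocardial and 159, 189 and 185 CPM in arterial libraries (-1.42 ± 0.20, adjusted p = 0.00012). Genes of mitochondrial fatty acid oxidation, Acadl, Acadm, Acadvl, Hadha, Hadhb, Cpt1a and Cpt2, were not called, with log2 fold changes from -0.64 to 1.01.

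Genes of the tip cell and VEGF response were mainly higher in arterial than in endocardial libraries. Of 24 tested, 15 were higher in arterial libraries and 1, Angpt2, was higher in endocardial libraries, with a median of 1.35. Of that list, Cxcr4, Unc5b and Igfbp3 were also called higher in arterial than in venous libraries, whereas Apln was not. Nid2, a basement membrane gene, had 269, 427 and 443 CPM against 29.3, 54.5 and 55.0 CPM (3.04 ± 0.30, adjusted p = 1.82e-05). Pdgfb, which recruits pericytes, was 2.33 ± 0.41 higher and Cd34 1.32 ± 0.20 higher on the log2 scale. Vegfa itself (1.38 ± 0.32, adjusted p = 0.0114) had 91.5, 155 and 118 CPM against 36.7, 39.9 and 63.9 CPM. The ranges did not overlap, yet the call ended without arterial replicate 2 or 3 or endocardial replicate 1 or 2 (0.0526 to 0.0958). The Angpt2 call (adjusted p = 0.0317) ended without any of 8 libraries (0.0555 to 0.116). Hypoxia and glycolysis genes had 10 arterial and no endocardial calls among 29, with a median of 0.61. The hypoxia count was 4 without arterial replicate 2 and 5 without arterial replicate 3. Ankrd37 and Egln1, targets of the hypoxia-inducible factors, were 2.70 ± 0.28 and 1.13 ± 0.18 higher and kept their calls without each single library, while Eno1, Pkm, Epas1 and Egln3 did not.

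**Figure D3:**
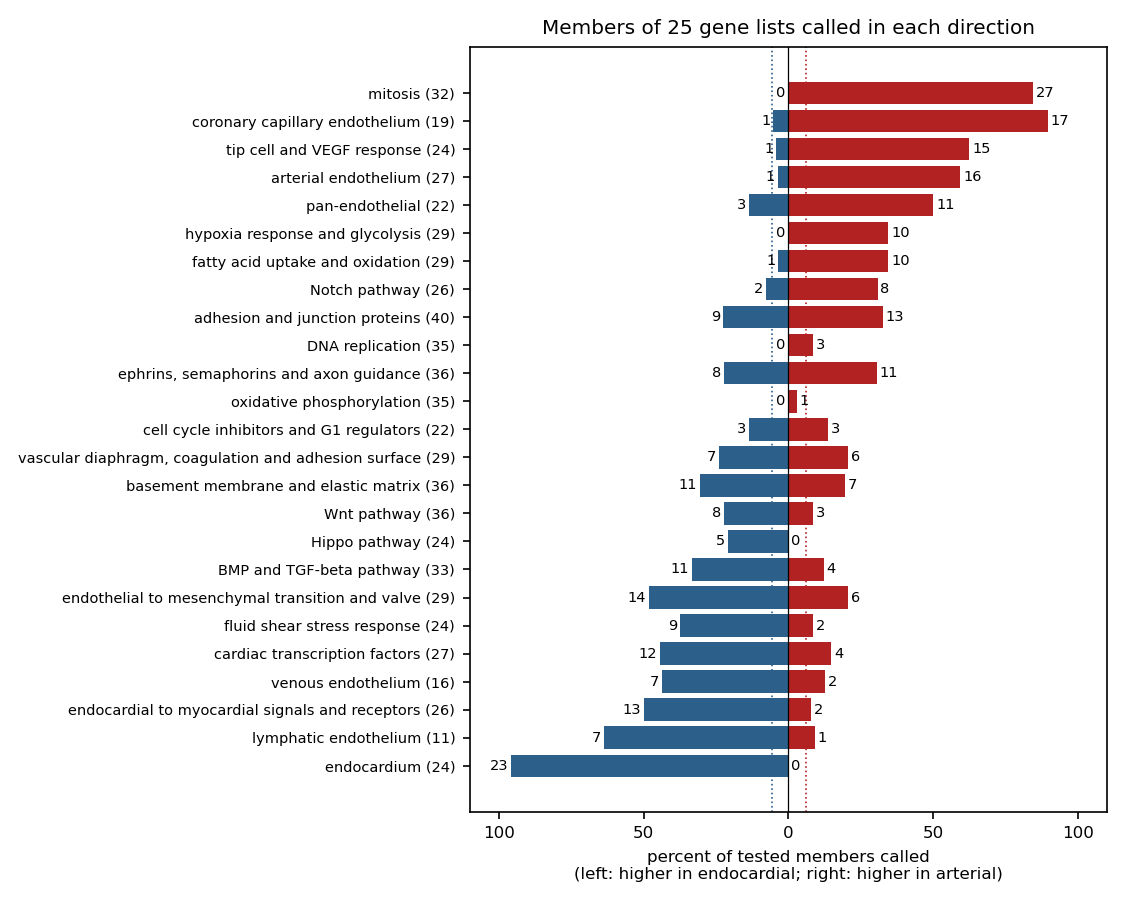
Percent of the tested members of 25 gene lists called higher in arterial (red, right) or endocardial libraries (blue, left), with the counts beside the bars, the number tested in brackets and dotted lines at the 5.92% and 5.75% of all genes called. Mitosis and capillary genes lie at the arterial end with 27 of 32 and 17 of 19, and the endocardial list at the other end with 23 of 24. Several lists, the arterial and endocardial ones among them, hold markers given for the comparison or genes of the sort.

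Endocardial markers were nearly all on the endocardial side. Of 24 tested, 23 were higher in endocardial libraries and none in arterial ones, with a median log2 fold change of -4.17. These counts include the given markers Npr3 and Cdh11 and Emcn of the sort, whose side was known beforehand. The member not called, Smoc2, had at most 1.62 CPM in any of the 6 libraries. Tmem108, a membrane protein gene, had 198, 256 and 273 CPM against 3.54, 1.90 and 2.5 CPM (-6.52 ± 0.31). Smoc1, a secreted calcium-binding matrix protein, had 89.8, 156 and 171 CPM against 0.663, 1.04 and 0.515 CPM (-7.52 ± 0.36). Both showed no arterial library within reach of the endocardial ones. Plvap, the protein of endothelial diaphragms, had 79.5, 230 and 195 CPM against 1.70, 1.09 and 0.368 CPM (-7.31 ± 0.72, adjusted p = 0.000235). Nfatc1, the factor best known as an endocardial and valve marker, differed least of the called members, at 109, 145 and 159 CPM against 42.0, 56.0 and 52.2 CPM (-1.46 ± 0.20, adjusted p = 5.85e-05), so that it was present in the arterial libraries too. Vwf, von Willebrand factor, had 168, 772 and 640 CPM against 61.0, 105 and 103 CPM, and its call (adjusted p = 0.0401) ended without any of 8 libraries (0.0777 to 0.164), the exception being endocardial replicate 1.

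Cardiac transcription factor genes were divided between the populations. Of 27 tested, 12 were higher in endocardial and 4 in arterial libraries, with a median of -1.42. The endocardial side held Gata4, Gata5 and Gata6, Foxc1 and Foxc2, Irx3, Irx5 and Irx6, Meis1 and Meis2, Tbx20 and Hand2. Gata4, a core factor of heart development, had 28.3, 57.7 and 58.9 CPM in endocardial and 1.47, 1.27 and 0.0735 CPM in arterial libraries (-5.66 ± 0.77, adjusted p = 0.00069). Foxc1, a forkhead factor, had 239, 197 and 219 CPM against 13.8, 12.3 and 13.5 CPM, 16.5-fold (-4.05 ± 0.21). Hand2 had 88.7, 91.5 and 114 CPM against 4.86, 0.461 and 2.13 CPM (-5.32, and -6.28 without arterial replicate 1), and its neighbour on the opposite strand, Hand2os1, moved with it (103 and 1.9 CPM on average), so that reads of the overlapping exons cannot be told apart without known strand. Tbx20 was 6.2-fold higher in endocardial than in arterial libraries, but its highest values were venous, at 177, 116 and 114 CPM against 100, 80.1 and 83.8 CPM in endocardial libraries (log2 0.62 of venous minus endocardial, adjusted p = 0.0654).

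The arterial side of that list held Tbx2, Tbx3, Wt1 and Mef2c. Wt1, a zinc finger gene known from epicardium and also from growing coronary endothelium, had 178, 185 and 204 CPM in arterial and 17.6, 18.8 and 23.7 CPM in endocardial libraries, 9.42-fold (3.24 ± 0.19, adjusted p = 4.94e-09). The other epicardial genes are given below with the markers of further cell types. Tbx3, a repressor known from the conduction system, had 40.2, 53.3 and 34.9 CPM against 5.73, 2.02 and 1.56 CPM (3.79 ± 0.48, and 4.58 without endocardial replicate 1). Mef2c was 1.5 ± 0.16 higher on the log2 scale.

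Genes of endothelial to mesenchymal transition and valve formation had 14 endocardial and 6 arterial calls among 29, with a median of -1.46. The endocardial calls included matrix genes. Vcan, the proteoglycan of the cardiac jelly, had 1119, 787 and 1095 CPM against 45.3, 30.5 and 21.1 CPM, a fold of 31.0. Fn1, fibronectin, had 3496, 5461 and 5854 CPM against 628, 974 and 839 CPM, a fold of 6.07. Postn, periostin, had 953, 1049 and 1140 CPM against 55.0, 56.1 and 70.4 CPM, a fold of 17.3. None of these matrix genes overlapped between arterial and endocardial libraries. Postn had 613, 572 and 536 CPM in venous libraries, nearer the endocardial ones (log2 -0.87 of venous minus endocardial, -3.25 of arterial minus venous). It is also a member of the endocardial and fibroblast lists. The transition factors themselves did not move together. Snai2 was higher in arterial libraries, at 39.8, 34.4 and 47.8 CPM against 18.4, 8.94 and 13.2 CPM (1.59 ± 0.28, adjusted p = 0.000757), Zeb2 was higher in endocardial libraries (-1.17 ± 0.19), Zeb1 was not called (0.33, adjusted p = 0.254), and Snai1 and Twist1 stayed under 3.5 CPM in each library.

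Within BMP and TGF-beta signalling, 11 of 33 genes were higher in endocardial and 4 in arterial libraries, with a median of -0.48. Ligands of the endocardial side were Inhba, Tgfb2, Bmp6 and Tgfb3, the last without a call when arterial replicate 2 (0.0663) or endocardial replicate 2 (0.118) was left out. Inhba, a chain of activin, had 61.9, 95.9 and 79.5 CPM against 1.03, 1.27 and 0.0735 CPM (-6.60 ± 0.55, adjusted p = 3.5e-06). Tgfb2, the isoform needed for valves, had 74.1, 87.9 and 116 CPM against 6.85, 9.68 and 12.3 CPM (-3.27 ± 0.35). Bmp2 was the ligand higher in arterial libraries (1.43 ± 0.37, adjusted p = 0.0152), and it lost that call without arterial replicate 1 (0.11) or endocardial replicate 3 (0.0612). Receptors were called on both sides. The type I BMP receptor gene Bmpr1a had 154, 170 and 188 CPM in endocardial and 3.98, 9.56 and 9.49 CPM in arterial libraries, 22.1-fold. Acvr1 (-0.99 ± 0.20) and Tgfbr3 (-2.13 ± 0.24) were also higher in endocardial libraries, Acvr2a was higher in arterial libraries (0.96 ± 0.18, adjusted p = 0.00147), and Bmpr2, Tgfbr1 and Tgfbr2 were not called. Targets were divided as well, with Tgfbi (81.5-fold, at 155, 172 and 161 CPM against 2.21, 2.25 and 1.47 CPM) and Id2 (-3.11 ± 0.29) on the endocardial side, Id1 (1.47 ± 0.28) on the arterial side and Id3 not called (-0.01).

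Wnt genes had 8 endocardial and 3 arterial calls among 36, with a median of -0.72. Wnt2, Wnt4 and Wnt9b, which encode ligands, and Apcdd1 and Nkd1, which encode inhibitors, were higher in endocardial libraries, along with Fzd1, Lrp5 and Tcf7l1. The calls of Lrp5 (0.0564 without arterial replicate 3), Tcf7l1 (0.0637 without endocardial replicate 3) and Nkd1 (0.0789 to 0.09 without arterial replicate 1 or 2 or endocardial replicate 2) were lost when a library was left out. Wnt9b, a ligand of valve endocardium, had 48, 35 and 76 counts in endocardial and 1, 2 and 4 counts in arterial libraries (-4.50 ± 0.96, adjusted p = 0.00395, and -5.18 without arterial replicate 3), and its adjusted p was 0.0616 in a fit of the 6 libraries alone. Apcdd1 had 21.8, 17.4 and 25.7 CPM against 1.25, 1.84 and 1.76 CPM (-3.73 ± 0.42, adjusted p = 8.64e-06). The common target Axin2 (-0.70, adjusted p = 0.743) was not called. Ctnnb1, beta-catenin, was 0.63 ± 0.15 and Fzd4 0.91 ± 0.23 higher in arterial libraries, the latter without a call when arterial replicate 2 or 3 or endocardial replicate 2 was left out (0.0774 to 0.0841).

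Signals between endocardium and muscle were mainly endocardial, with 13 of 26 genes higher there, 2 higher in arterial libraries (1 without arterial replicate 2 or 3 or endocardial replicate 1 or 2) and a median of -1.84. Igfbp5, an IGF binding protein, had 2728, 4120 and 3698 CPM against 211, 197 and 170 CPM, 18.2-fold (-4.19 ± 0.19, adjusted p = 4.2e-10). Igf1 was 2.24 ± 0.24 higher on the log2 scale in endocardial libraries. Of the endothelin genes, Edn1 (ligand), Ece1 (processing enzyme) and Ednrb (receptor) were higher in endocardial libraries, whereas the receptor gene Ednra was low and not called (at most 4.34 CPM, log2 1.44 ± 1.3, adjusted p = 0.649). Edn1 had 57.7, 76.2 and 67.1 CPM against 14.0, 19.3 and 6.77 CPM (-2.32 ± 0.33), Ece1 had 710, 1302 and 1488 CPM against 179, 181 and 184 CPM (-2.69 ± 0.23), and Ednrb had 980, 1123 and 1127 CPM against 192, 134 and 121 CPM (-2.85 ± 0.19). None of these 3 genes overlapped between populations. Npr1, the signalling receptor of natriuretic peptides, was not called (0.33, adjusted p = 0.711), in contrast to Npr3. Vegfc, the arterial exception beside Vegfa, had 74.9, 78.1 and 50.4 CPM against 6.49, 9.30 and 5.50 CPM.

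The list of genes that respond to fluid shear had 9 endocardial and 2 arterial calls among 24, with a median of -0.94. Klf2, a flow-induced factor, had 125, 118 and 132 CPM against 66.8, 63.8 and 63.3 CPM (-0.95 ± 0.19, adjusted p = 0.00232). Its relative Klf4 (-0.52, adjusted p = 0.124, and 0.0368 with the block) and the nitric oxide synthase gene Nos3 (-0.05, adjusted p = 0.949) were not called. The mechanosensitive channel gene Piezo2 was higher in arterial libraries, at 152, 121 and 121 CPM against 37.1, 42.7 and 36.6 CPM (1.76 ± 0.17). Piezo1 was higher in endocardial libraries (-1.15 ± 0.29, adjusted p = 0.0225), a call that ended without any of 6 libraries (0.0542 to 0.115). Ptgs1, cyclooxygenase 1, was 3.85 ± 0.28 higher on the log2 scale in endocardial libraries.

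Guidance genes were called on both sides. Of 36, 11 were higher in arterial and 8 in endocardial libraries, with a median of 0.26. Netrin receptors were opposed, as Unc5b was arterial and Unc5c endocardial (-4.10 ± 0.57). Slits and their receptors were opposed too. The ligand genes Slit2 (-1.73 ± 0.29) and Slit3 (-6.92 ± 0.92) were higher in endocardial libraries, and the receptor genes Robo1 (1.41 ± 0.25) and Robo4 (1.22 ± 0.21) in arterial ones. Epha7, an ephrin receptor gene, had 294, 240 and 290 CPM in endocardial and 3.54, 3.46 and 5.37 CPM in arterial libraries (-6.06 ± 0.26, adjusted p = 2.71e-10). Sema3a had 118, 132 and 133 CPM against 11.6, 10.1 and 5.59 CPM (-3.81 ± 0.28). In both genes all endocardial values exceeded all arterial ones by a wide margin. Ephb4, the venous receptor of Efnb2, was not called (-1.02, adjusted p = 0.356, and 0.0463 with the block).

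Matrix genes were called on both sides. Of 36 genes of basement membrane and elastic matrix, 7 were higher in arterial and 11 in endocardial libraries, with a median of -0.32 (-0.10 without arterial replicate 2 and -0.15 with the block). The arterial calls were Sparcl1, Lama2, Nid2, Col15a1, Tnc, Sparc and Lamc1. Sparcl1, a matricellular gene, had 3897, 4833 and 3766 CPM against 317, 289 and 355 CPM, 13.0-fold (3.70 ± 0.20, adjusted p = 1.8e-09). The endocardial calls were genes of elastic fibres and microfibrils (Eln, Fbn1, Fbn2, Mfap2, Mfap5, Emilin1, Fbln2), of crosslinking (Lox, Loxl2), Col4a5 and Mgp. Lamc1 lost its call without arterial replicate 2 or 3 (0.0882 and 0.0644) and Emilin1 without any of 5 libraries (0.0563 to 0.141). Eln, elastin, had 48.3, 161 and 203 CPM against 5.68, 16 and 12.1 CPM (-3.63 ± 0.57, adjusted p = 0.00359). With the block 11 matrix genes were arterial calls in place of 7, among them Col4a1 (log2 0.70 and adjusted p 0.0009, against 0.172 without the block). Junction and adhesion genes had 13 arterial and 9 endocardial calls among 40, with a median of 0.15. Gja1, connexin 43, had 180, 152 and 167 CPM against 60.4, 70.3 and 52.8 CPM, and Tjp1, the tight junction scaffold, was 2.93-fold higher in arterial libraries. Cgnl1, paracingulin, had 1095, 1373 and 1259 CPM in endocardial and 203, 208 and 174 CPM in arterial libraries (-2.67 ± 0.16, adjusted p = 5.63e-09). Of 22 pan-endothelial genes 11 were higher in arterial libraries, among them Ets1 (1.27 ± 0.14) and Fli1 (0.95 ± 0.16), and 3 in endocardial libraries, Emcn of the sort, Tek (-1.28 ± 0.16) and Mmrn2 (-0.71, and no call without endocardial replicate 2 or 3, at 0.0852 and 0.0506). Tie1, Tal1 and Flt1 were not called.

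Among 29 genes of diaphragms, coagulation and the vessel surface, 6 were arterial and 7 endocardial calls, with a median of -0.06. The activators of fibrinolysis Plau (2.82 ± 0.38) and Plat (1.52 ± 0.19) were higher in arterial libraries. Procr, the protein C receptor gene, was higher in endocardial libraries, at 55.8, 105 and 74.5 CPM against 10.8, 9.04 and 7.35 CPM (-3.11 ± 0.28), while thrombomodulin (Thbd, -0.02) was not called. The endocardial count was 4 without arterial replicate 2 and 3 without endocardial replicate 3. Selp, P-selectin, lost its call without endocardial replicate 3 (log2 -3.23 in place of -4.71, adjusted p = 0.154), the library with 319 of its counts against 70 and 21.

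Mitosis genes were higher in arterial libraries almost as a block. Of 32 tested, 27 were arterial calls, none was an endocardial call, and the median was 1.17. Mki67, the proliferation antigen, had 1908, 1175 and 1251 CPM in arterial and 536, 462 and 542 CPM in endocardial libraries, 2.81-fold (1.49 ± 0.19, adjusted p = 3.77e-05). Top2a, topoisomerase 2 alpha, had 589, 442 and 396 CPM against 245, 207 and 231 CPM (1.06 ± 0.17). Kif11, a spindle motor, had 139, 122 and 117 CPM against 46.4, 52.1 and 37.7 CPM (1.47 ± 0.18). In each of these genes the lowest arterial library was above the highest endocardial one, and arterial replicate 1 was the highest. The differences were near 2-fold, and against a 2-fold threshold 1 member remained. Venous libraries had 1900, 1594 and 2329 CPM of Mki67, so that the endocardial libraries were the low ones of the 3 populations (log2 1.92 of venous minus endocardial, adjusted p = 4.73e-06). Leaving out a single library gave 21 to 25 calls.

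DNA replication genes differed less. Of 35 tested, 3 (8.6%) were arterial calls, near the 5.92% of all genes, and the median was 0.44. Pcna, the polymerase clamp, had 516, 382 and 340 CPM against 214, 242 and 261 CPM (0.79 ± 0.18, adjusted p = 0.00589). The Gins3 call ended without any of 6 libraries and the Rfc4 call without any of 8. The list had 1 call in a fit of the 6 libraries alone or without arterial replicate 1 or venous replicate 1 or 3, and 5 with the block. Mcm2 to Mcm7 were not called, with log2 fold changes from -0.46 to 0.56. Of the inhibitors and regulators of G1, 3 of 22 were called on each side. Cdkn1c, the inhibitor p57, had 1171, 1568 and 1336 CPM in endocardial and 227, 206 and 208 CPM in arterial libraries, 6.37-fold (-2.67 ± 0.16, adjusted p = 7.42e-09). The cyclin gene Ccnd2 had 516, 911 and 878 CPM against 146, 205 and 174 CPM (-2.13 ± 0.21). The remaining endocardial call, Cdk4 (on average 211 against 130 CPM), ended without any of 6 libraries (0.0504 to 0.265). On the arterial side, E2f1, Cdkn1a and Rb1 all lost their calls without arterial replicate 2 (0.0645, 0.0841 and 0.123).

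**Figure D4:**
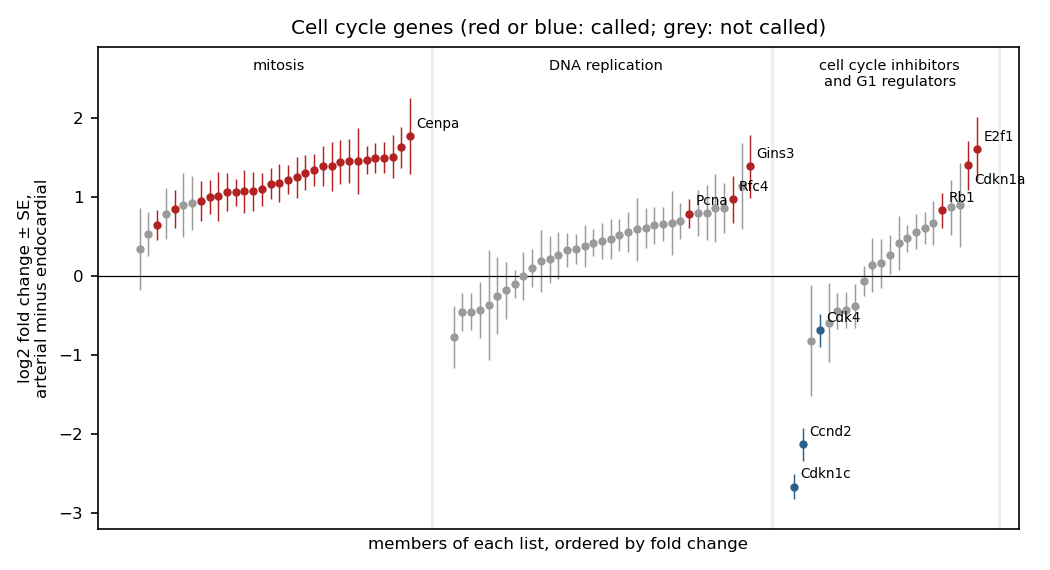
Log2 fold change with SE of each member of 3 cell cycle lists, ordered within its list; red members were higher in arterial and blue in endocardial libraries, and grey ones were not called. All 32 mitosis genes lie above 0 and 27 are called, the DNA replication genes spread around a median of 0.44 with 3 called, and Cdkn1c and Ccnd2 stand apart below 0.

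Many venous and lymphatic markers were higher in endocardial than in arterial libraries. Of 16 venous markers, 7 were higher in endocardial and 2 in arterial libraries, with a median of -1.12. The 7 include Vwf, which is also in the endocardial list, and Selp. The calls of Vwf and Selp ended when libraries were left out, as given above. Nr2f2, the venous and lymphatic factor COUP-TFII, had 113, 130 and 126 CPM in endocardial and 22.5, 17.9 and 18.2 CPM in arterial libraries (-2.66 ± 0.20), with 63.7, 51.6 and 49.0 CPM in venous libraries between them. Cpe, Vcam1 and Tek were also lower in venous than in endocardial libraries, on average 158 against 1827, 35.1 against 68.8 and 536 against 948 CPM. The 2 venous markers higher in arterial than in endocardial libraries were Aplnr, the apelin receptor gene (1.84 ± 0.20), and Nrp2 (1.07 ± 0.16). Both were highest in venous libraries. Aplnr had 397, 431 and 325 CPM there (log2 -1.31 of arterial minus venous, adjusted p = 0.00182, edgeR). Nrp2 had 493, 558 and 577 CPM (log2 -0.35, adjusted p = 0.558). Of 11 lymphatic markers, 7 were higher in endocardial libraries and 1, Nrp2, in arterial ones, with a median of -4.84. Prox1, the master factor of lymphatic fate and also a gene of valve endothelium, had 250, 261 and 213 CPM against 7.81, 5.93 and 8.16 CPM, 33.1-fold (-5.05 ± 0.28). Lyve1, a hyaluronan receptor gene of lymphatics and also of endocardium, had 214, 234 and 272 CPM against 6.93, 0.691 and 1.69 CPM (-6.29 ± 0.83, and -7.68 without arterial replicate 1). Reln was 4.84 ± 0.38 and Mmrn1 5.72 ± 0.84 higher on the log2 scale in endocardial libraries, the latter at -6.51 of arterial minus endocardial without arterial replicate 1. Flt4, the lymphatic VEGF receptor, was at 63.3, 102 and 94.3 CPM in arterial and 52.6, 111 and 95.9 CPM in endocardial libraries (0.00, adjusted p = 1), and Pdpn, podoplanin, had at most 4.11 CPM in any of the 6. In bulk libraries fewer cells of a type and less RNA per cell cannot be told apart, and the endocardial gate as written would admit other CD31+ GFP+ endothelium; the part of lymphatic cells in these levels was not tested.

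Markers of other cell types are described for whole lists. Of all genes tested, 5.92% were called higher in arterial and 5.75% higher in endocardial libraries. Fibroblast genes had 11 endocardial and no arterial calls among 16, with a median of -3.2. Dpep1 had no arterial count and an endocardial mean of 0.0721 CPM, so that both groups were at or under a floor of 3 counts per library. Taking Dpep1 at that floor put the median at -2.87. Their summed level was 2090 to 2927 CPM in endocardial and 214 to 245 CPM in arterial libraries, and 953 to 1140 CPM of the former was Postn. Pdgfra, the receptor gene of mesenchyme, had 123, 103 and 111 CPM against 2.58, 3.46 and 2.87 CPM, 37.6-fold. Col3a1 had 284, 273 and 310 CPM against 34.2, 19.4 and 16.4 CPM. Col1a2 had 94.3, 128 and 156 CPM against 11.4, 11.1 and 5.59 CPM, and Lum, a collagen-binding proteoglycan, had 55.1, 47.8 and 86.9 CPM against 1.55, 0.288 and 0.368 CPM (-6.45 ± 0.54, and -7.57 without arterial replicate 1). Dcn (-4.82 ± 0.84, adjusted p = 0.0103) lost its call without arterial replicate 1 (0.0671) or with the block (0.0507). It averaged 56.3 CPM in venous and 85.5 CPM in endocardial libraries (log2 -0.6 of venous minus endocardial, adjusted p = 0.709, edgeR). Members that were not called included Tcf21, Dpt and Ddr2, with at most 2.67, 4 and 8.48 CPM in any of the 6 libraries. The part of fibroblast RNA in the matrix, valve and BMP results above was not tested.

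Mural genes had 4 arterial and no endocardial calls among 15, with a median of 0.53 (0.18, 0.28 and 1.01 without endocardial replicate 1, 2 and 3) and sums of 1036 to 1501 CPM in arterial and 353 to 504 CPM in endocardial libraries. The calls were Rgs5 (54.5, 78.8 and 80.7 CPM against 6.19, 3.6 and 2.71 CPM), Kcnj8 (4.06, and 5.69 without endocardial replicate 3), Abcc9 (3.40 ± 0.31) and the shared endothelial gene Mcam. The mural list had 1 endocardial call without arterial replicate 2 or 3 or endocardial replicate 1. The smooth muscle genes Acta2, Tagln and Cnn1 had at most 8.97 CPM, and the pericyte receptor gene Pdgfrb was lower in arterial libraries without a call (-1.47, adjusted p = 0.0534, and 0.0234 with the block). Epicardial genes summed to 191 to 219 CPM in arterial and 67.0 to 76.3 CPM in endocardial libraries, of which Wt1 made 178 to 204 and 17.6 to 23.7 CPM. Gpm6a was the member called on the endocardial side (log2 -3.15), and Upk3b, Msln, Krt18, Krt19, Aldh1a2, Tbx18, Lrrn4 and Efemp1 had at most 5.65 CPM in any of the 6 libraries, with a list median of -1.79 (-0.63 without endocardial replicate 1). Cardiomyocyte genes summed to 465 to 623 CPM in arterial and 731 to 879 CPM in endocardial libraries, with 4 endocardial calls among 20, a median of -0.91 (-0.57 without endocardial replicate 2) and Nppb at 0. The 4 became 2 without arterial replicate 1 or 3 or endocardial replicate 2 or 3. Erythroid and platelet genes summed to 547 to 1224 CPM against 96.3 to 260 CPM, with Hbb-bs as the call (854, 424 and 361 CPM against 55.2, 132 and 43.4 CPM). Haemoglobin genes are near-identical copies, and the Hbb-bs call (adjusted p = 0.02) ended with the block (0.0675) and without any of 5 libraries. Leukocyte genes (2 arterial calls of 10, and 1 without arterial replicate 2) summed to 73.1 to 98.0 CPM against 42.4 to 55.5 CPM, and Ptprc, the CD45 gene excluded by the sort, had at most 3.32 CPM. The neural list had 1 call of 8 (12.5%) and the erythroid list had 8.33% called, near the 11.7% of all genes. The cardiomyocyte, epicardial and leukocyte lists had 20% called each. The part of each of these cell types in the results was not tested.

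**Figure D5:**
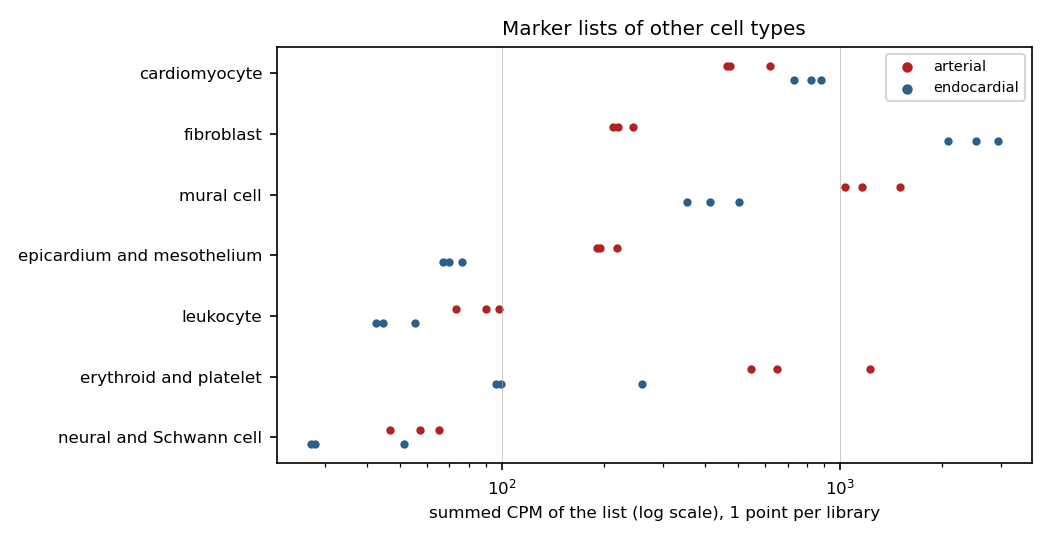
Summed CPM of 7 marker lists of other cell types, 1 point per library on a log x axis, arterial in red and endocardial in blue. The fibroblast sum is 2090 to 2927 CPM in endocardial against 214 to 245 CPM in arterial libraries, mural, epicardial, leukocyte and erythroid sums are higher in arterial libraries, and the neural sums overlap.

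Of all genes tested, 11.7% were called, and 5.75% were called higher in endocardial libraries. Of 35 nuclear genes of oxidative phosphorylation 1 (2.86%) was called, Ndufb10, and that call ended without any of 8 libraries. The median was 0.22. Mitochondrially encoded genes had 5 endocardial calls among 13, a median of -0.63 and sums of 41858 to 43850 CPM in endocardial and 25143 to 36643 CPM in arterial libraries. The number of calls was 1 without arterial replicate 2 or 3, 2 without endocardial replicate 2 or 3 and 9 without arterial replicate 1. Hippo pathway genes had 5 endocardial and no arterial calls among 24 (3 without endocardial replicate 2) with a median of -0.32. Amot, an angiomotin, had 125, 139 and 160 CPM in endocardial and 47.7, 47.9 and 30.5 CPM in arterial libraries (-1.75 ± 0.21), whereas the effector Wwtr1 was not called (0.21) and Yap1 (-0.82, adjusted p = 0.0234) lost its call without arterial replicate 2 or 3 or endocardial replicate 2 (0.0698 to 0.127). Immediate-early genes, which respond to handling, had 6 endocardial calls among 18, led by Egr2 (-1.79 ± 0.28), Socs3 (-1.58 ± 0.21) and Fosb (-1.47 ± 0.17), with a median of -0.13. The sums were 4199 to 5021 CPM in endocardial and 3167 to 3743 CPM in arterial libraries, and their part in the other results was not tested.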

How the data were processed

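Gene expression was measured by single-read RNA-seq of polyA RNA (1 ng input) in 3 arterial, 3 endocardial and 3 venous libraries. The authors deposited gene-level expected counts, made with RSEM 1.2.3 after CASAVA 1.8.2 and cutadapt 1.3 on GRCm38, per the submitters' processing notes. Strandedness and aligner are not named in the labels, so that reads of genes overlapping on opposite strands (such as Gja5 and Gpr89, Dll4 and Gm14207, or Nrg1 and Gm26578) cannot be told apart. Of 41214 features, 97.88% had a symbol, and 12066 had no count. Of values above 0, 45.5% were not exactly whole as deposited (no tolerance). Values were rounded and tested with edgeR 4.0.16 in R 4.3.3 (TMM, minimum count of 10, robust quasi-likelihood F test), with all 9 libraries in 1 fit. Its common dispersion was 0.409, a coefficient of variation of 0.639. The SE is the absolute log2 fold change over the square root of F. The script was tested on simulated data. Gene coordinates are from GENCODE release 21 for mouse.

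The label that numbers batches equals the replicate number, and the labels do not say what a batch is. Deviations from group means of same-numbered arterial and endocardial libraries correlated at 0.155, 0.146 and -0.05. Differently numbered pairs of these groups gave -0.271 to 0.16. The fit with the replicate number as a block was an alternative. A batch holds 1 library per population and gives no test of its own. Within batches, 1011 of 1012 and 981 of 984 called genes had the same sign in all 3, which the lack of overlap fixes for 1002 and 970 of them.

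The comparison, its markers, the 35 gene lists and the naming rule were chosen with earlier results of these data known. The rule took the 15 largest rises and 15 largest falls among called genes (mean log2 CPM of at least 4, no overlap, no predicted, Y-linked or Xist genes), up to 4 members of each list by smallest p and 2 against its direction, 33 key genes, and the 5 highest in each direction, 182 genes in all. Of these, 1 gene is not reported here. Other list members named as examples were chosen after their values were seen. The sex-linked list (5 tested, none called) is not described further. Alternatives were other scalings, DESeq2 1.42.0, other filters, the 6 libraries alone, the block, a 2-fold threshold, no Gm42418 or mitochondrial genes, and leaving out libraries.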

Additional observations from a re-analysis of the deposited data

How the results depend on the processing

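Against the 1996 genes called (1012 arterial, 984 endocardial), a threshold of 2-fold gave 682 (265 and 417), DESeq2 gave 2645 (1331 and 1314), and the fit with the replicate number as a block gave 2312 (1189 and 1123), of which 1937 were shared with the main calls. Without a single library the count was 1507 to 2251 (arterial 705 to 1112, endocardial 740 to 1139, each highest without endocardial replicate 1), and without all 3 libraries of 1 replicate number 1003 to 2060 (arterial 497 to 984, endocardial 498 to 1076). No call shared between the main fit and any of these settings changed sign. The fits use the same or nested libraries, so that a change of sign was unlikely from the start. DESeq2 size factors kept the side of all 182 genes of the naming rule, and with the block 177 kept it, 2 lost their call and 3 gained one. Beside the changes given with the results, the block moved no list count described above by more than 1.5 times, apart from 4 endocardial calls in the Notch list and in the arterial list, 5 arterial calls among regulators of G1, 2 in oxidative phosphorylation, and 1 endocardial call each in the mural and the erythroid list. Leaving out 1 library moved further list medians by over 1.5 times: Wnt to -1.11 (arterial replicate 3), Hippo to -0.20 and -0.16 (arterial replicate 1, endocardial replicate 3), oxidative phosphorylation to 0.12 (arterial replicate 1), junctions to 0.24 and 0.07 (arterial replicates 1 and 2), immediate-early to between -0.29 and -0.06, and diaphragm and coagulation to as low as -0.14. Depth is 12750553 counts or more per library, and genes with a few counts in 1 population have folds that 1 library can move.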

Other observations

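Imprinted genes, expressed from a single parental copy and many of them regulators of fetal growth, were called on both sides, more of them endocardial. A list of 32 was written after the values had been seen, so that it is a description. Of the 28 tested, 14 were higher in endocardial and 4 in arterial libraries and 10 were not called, with a median log2 fold change of -1.0 against 0.01 over all genes. Over all genes tested, 5.75% were called higher in endocardial and 5.92% higher in arterial libraries. H19, a long noncoding RNA, had 17606, 48000 and 28982 CPM in endocardial and 5574, 5399 and 5560 CPM in arterial libraries (-2.52 ± 0.31, adjusted p = 0.000616, edgeR). Igf2, the growth factor gene beside it, had 9930, 15818 and 17056 CPM against 3703, 4053 and 3996 CPM, and Igf2r, whose product clears that factor, had 2705, 4661 and 4372 CPM against 745, 957 and 915 CPM. In these 3 genes the lowest endocardial library lay above the highest arterial one, and endocardial replicate 1 was the lowest of its group. Plagl1, a zinc finger factor gene, had 6183, 6324 and 6511 CPM against 2208, 1288 and 1297 CPM, and Dlk1 had 44.4, 114 and 94.3 CPM against 5.01, 6.62 and 5.29 CPM. The venous libraries were near the arterial ones for H19 (5685 to 6698 CPM), Igf2 (3400 to 4746) and Plagl1 (1299 to 1700), and nearer the endocardial ones for Dlk1 (29.6 to 69.5).

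The 4 imprinted genes of the arterial side were Gnas, Mest, Grb10 and Asb4. Mest had 3277, 3457 and 3073 CPM in arterial and 1591, 1988 and 2282 CPM in endocardial libraries (0.74 ± 0.14, adjusted p = 0.00173). Grb10 was 0.76 ± 0.17 higher on the log2 scale. The Asb4 call ended without arterial replicate 1 or endocardial replicates 2 or 3 (0.0612 to 0.108). On the endocardial side the Ndn call ended without any of 5 libraries and the Rian call without any of 4. Gnas overlaps Gm20721 on the opposite strand, and Peg10, Sgce and Kcnq1ot1 were not called (0.01, -0.01 and -0.30).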
